A study of Homo sapiens with 30 samples.

Results

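SF3b is the part of the U2 small nuclear ribonucleoprotein (snRNP) that holds the branch point of an intron, and the messenger RNAs of its 7 subunits, SF3B1, SF3B2, SF3B3, SF3B4, SF3B5, SF3B6 and PHF5A, were followed across 30 RNA-seq libraries. The genes were chosen by name, and all 7 were found among the 61487 gene rows of the count table and passed the filter on low counts. The cells were eHAP FNLS, a human line related to HAP1 and fitted with FNLS, an enzyme that edits cytosines. They were of 5 genotypes. Control cells were 1 line transduced with a non-targeting sgRNA and sampled as 3 replicates. PHF5A 2xTL cells (sgRNA PHF5A_6) carry a 6-nt insertion in PHF5A, SF3B1 T1080I cells (sgRNA SF3B1_166) a substitution in SF3B1, and SUGP1 E554K (sgRNA SUGP1_238) and SUGP1 G603N (sgRNA SUGP1_188) cells a substitution in SUGP1. Each mutant was sampled as 3 independent monoclonal lines, so the spread in the mutants is between clones and that in control is between cultures of 1 line. Every line was treated for 3 h with DMSO, the solvent, or with 2 nM pladienolide B (PB), which gives 10 groups of 3 libraries. The series was made to ask how mutations linked to PB resistance affect splicing, and gene counts show RNA abundance only.

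As background, SF3b recognises the branch point adenosine as part of U2 in most introns and as part of the U11/U12 particle in the rare U12-type introns. SF3B1 is the ring-shaped HEAT-repeat scaffold, PHF5A fills the hinge of that ring, and the branch point adenosine is held in the pocket between them. PB binds in the same pocket, and changes in the pocket residues of SF3B1 or PHF5A are known to lower sensitivity to it. SUGP1 binds SF3B1 without being a subunit, and it belongs to the G-patch family.

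The stretch of SF3B1 that is edited in the SF3B1 T1080I lines is shown because it sets that genotype apart. It is reference sequence on the coding strand (GRCh38, GENCODE release 29 transcript), not sequence read from the cells, and the gene lies on the minus strand.

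SF3B1, chr2:197397987-197398037, minus strand, exon 22 of 25: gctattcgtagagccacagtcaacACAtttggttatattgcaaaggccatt

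The capitals mark the threonine codon of ENST00000335508.10 that the name T1080I points to (2, 197398011 to 197398013), given as changed to isoleucine.

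Total counts ran from 31592500 to 75037300 per library, and mitochondrial genes took 10.1 to 17.9% of them. Genes annotated as processed pseudogenes took 1.11 to 2.23%. Of the marker lists used to look at the cell line, 0 of 6 haematopoietic markers, 4 of 4 mesenchymal markers and 2 of 4 epithelial markers reached a mean of 1 CPM (counts scaled to a library of 1e+06). The summed haematopoietic level was 0.372 to 1.46 CPM, the mesenchymal 208 to 416 and the epithelial 20.1 to 154. Library 3 of SUGP1 G603N under DMSO had the lowest value of its group for all 7 subunits. Some estimates of the subunits in SUGP1 G603N are therefore also given without it. Ratios, correlations and estimates for other genes include it. In bulk RNA a lower level in a group can mean fewer cells that express a gene or less RNA per cell, which cannot be told apart.

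All 7 subunits were expressed in every library, and none varied by more than 1.80-fold between the lowest and the highest library. CPM were taken after TMM scaling of the libraries and are compared within a gene only. SF3B2, which holds SF3B4 and contacts the RNA near the branch site, had 449 to 658 CPM (mean 551.9, coefficient of variation 7.42%, 30 libraries), the narrowest spread of the 7. SF3B1 had 360 to 583 CPM (mean 485.6, 11.2%). SF3B3, the large beta-propeller protein on which SF3B1 rests, had 351 to 515 CPM (mean 435.2, 9.89%). These 3 large subunits stood above the other 4 in CPM, which does not correct for their greater length. SF3B4, an RNA-binding protein with RRM domains, had 120 to 215 CPM (mean 171.4, 11.1%). SF3B6, a small RRM protein, had 80.5 to 128 CPM (mean 98.3, 12.1%). SF3B5, a small protein bound to SF3B3 and SF3B1, had 56.8 to 102.4 CPM (mean 81.9, 15.6%), the widest spread of the 7, and it is the only one in a single exon (chromosome 6, 144094881 to 144095573). PHF5A, a small zinc-binding protein, had 44.6 to 76.5 CPM (mean 59.1, 11.9%).

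**Figure D1:**
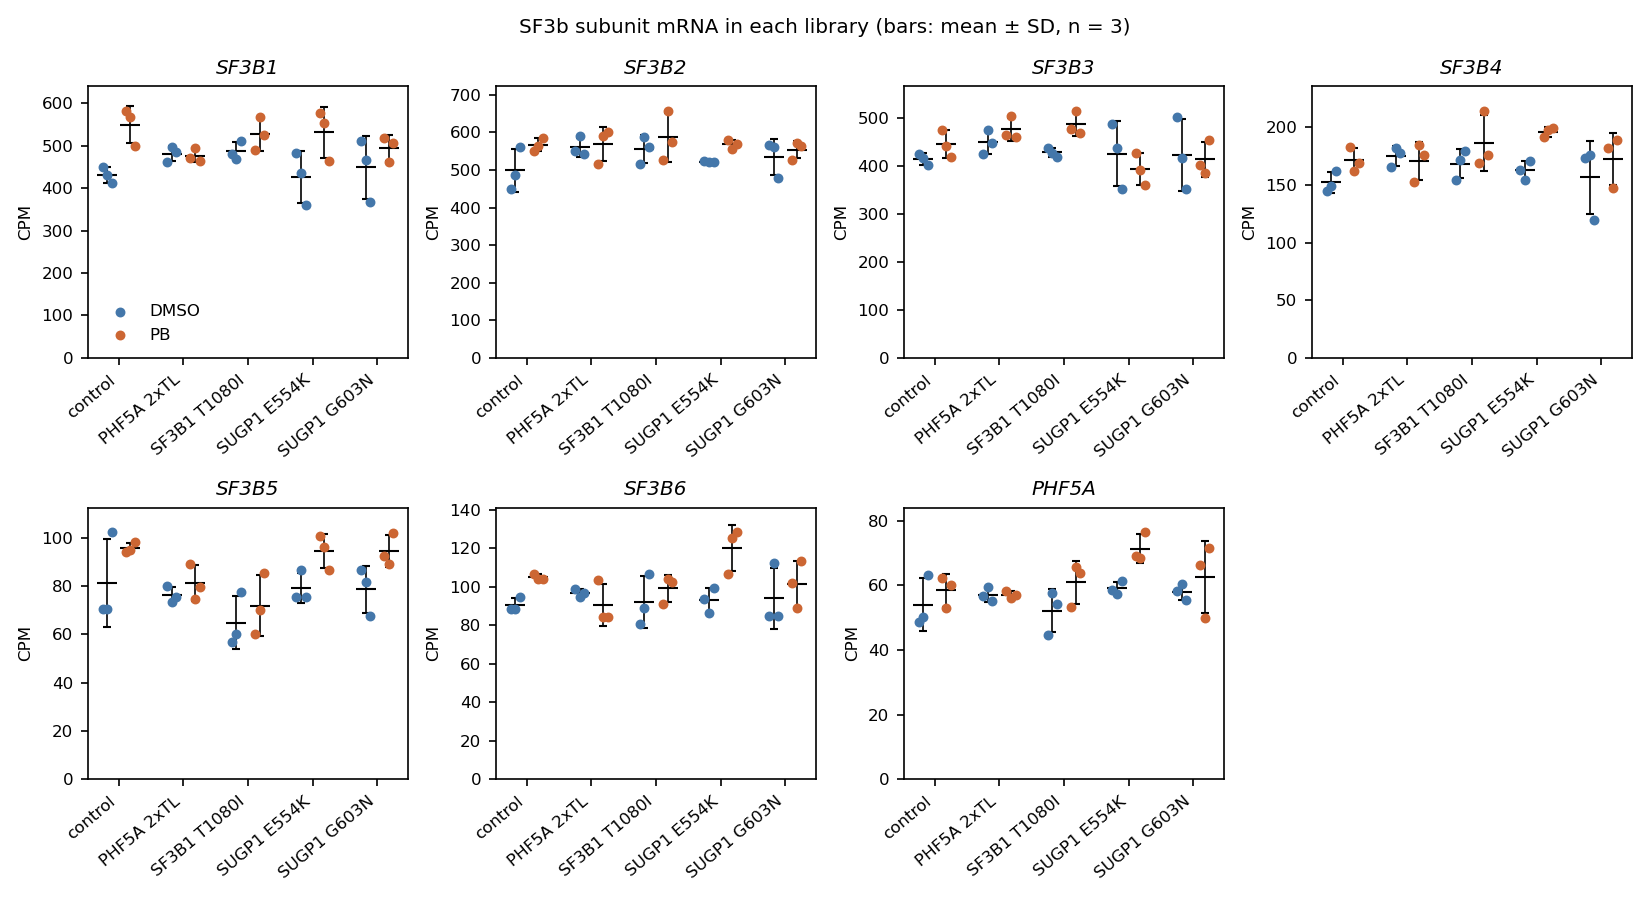
CPM of each SF3b subunit (vertical axis, from 0) in every library, by genotype (horizontal axis) and treatment (blue, DMSO; orange, PB), with bars for the mean ± SD of 3 libraries. The SF3B1 values of control with PB, 499.4 to 582.8 CPM, lie above those with DMSO, 412.0 to 449.7 CPM, while in PHF5A 2xTL the 2 treatments overlap.

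Per kilobase of annotated exon, the order of the subunits was another one. With the merged exons of each gene as its length, SF3B5 was highest at 118 ± 18.4 CPM per kb (SD, 30 libraries), followed by SF3B6 at 82.1 ± 9.94 and SF3B4 at 76.3 ± 8.45. SF3B2 came next at 56.3 ± 4.18, then SF3B1 at 53.0 ± 5.93, PHF5A at 47.8 ± 5.68 and SF3B3 at 35.0 ± 3.47. The neighbours SF3B6 and SF3B4, SF3B2 and SF3B1, and SF3B1 and PHF5A differed by less than their SD. The order depended on the length used, since merged exons include segments of transcripts that may not be made in these cells. With the longest transcript as length, SF3B2 was highest at 140 ± 10.4 CPM per kb, ahead of SF3B6 (128 ± 15.5) and SF3B5 (118 ± 18.4). SF3B3 was lowest under both lengths (44.8 ± 4.43 with the longest transcript), and PHF5A next to lowest.

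**Figure D2:**
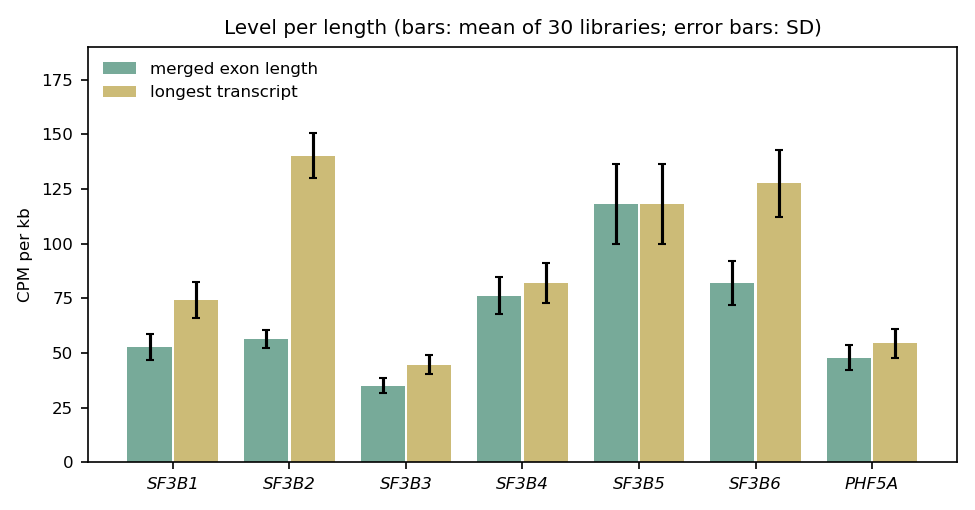
Level per length of each SF3b subunit (CPM per kb, vertical axis), as the mean of 30 libraries with the SD as error bar, for merged exon length and for the longest transcript. SF3B2 moves from 56.3 to 140 CPM per kb with the change of length, while SF3B5, with 1 exon, stays at 118.

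The first comparison was PB against DMSO in control cells, which asks whether 3 h of SF3b inhibition moved the mRNA of its own subunits. All 7 fold changes were above 1 there, and none passed the test (0 of 7 called, edgeR, adjusted p under 0.05), where 4.3% of all 31495 tested genes were called and 0.987% were called higher. An unadjusted p under 0.05 was reached by 1 of the 7 and by 4352 of all 31495 tested genes (edgeR). The median log2 fold change of the 7 was 0.18, against 0.01 over all tested genes. Processed pseudogenes took 1.48 to 1.80% of counts in the control DMSO libraries and 1.84 to 2.23% in PB, and mitochondrial genes 10.6 to 11.26% and 11.27 to 12.8%. Neither share overlapped between the treatments, and their part in the result was not tested. SF3B1 stood nearest to the threshold. It had 449.7, 431.1 and 412.0 CPM in DMSO libraries 1, 2 and 3 and 582.8, 567.9 and 499.4 CPM in the same-numbered PB libraries. The groups did not overlap, and every PB library was above its DMSO partner. The log2 fold change was 0.35 ± 0.12 (SE, 95% interval 0.11 to 0.59), a 1.28-fold higher level (edgeR, adjusted p = 0.0934). The value passed in other fits, with adjusted p = 0.013 with the numbered line as a block (edgeR) and 0.0201 with DESeq2. Each of these called 1 of the 7. The block called 2.11% of all genes higher and DESeq2 2.54%. The same 1 call was made with only the groups compared (2.75% of all genes higher), with the size factors of DESeq2 (1.08%), with library size without mitochondrial genes (1.2%), with another rounding of ties (1.1%) and without the third lines of both SUGP1 genotypes (1.53%).

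SF3B6 was the other subunit whose control groups did not overlap, with 88.6, 88.5 and 94.8 CPM in DMSO and 106.7, 103.9 and 104.3 CPM in PB (log2 fold change 0.21 ± 0.12, edgeR, adjusted p = 0.501). In all, 2 of 7 subunits were higher with no overlap, where 11% of all tested genes were. SF3B5 had 70.7, 70.6 and 102.4 CPM in DMSO and 94.1, 95.1 and 98.1 CPM in PB, so DMSO library 3 alone was above the PB libraries (0.24 ± 0.14, edgeR, adjusted p = 0.524). DMSO library 3 was the highest of its group for 5 of 7 subunits. SF3B2 went from 499.1 ± 57.2 to 567.3 ± 17.8 CPM and PHF5A from 54.1 ± 8.06 to 58.4 ± 4.97 CPM (SD, n = 3). SF3B4, at 152.2 ± 9.26 and 171.6 ± 10.5 CPM, differed by 0.17 ± 0.13 on the log2 scale (edgeR, adjusted p = 0.639).

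In SUGP1 E554K, PB against DMSO gave the highest median among the 5 genotypes, a log2 fold change of 0.27 against -0.01 over all genes. None of the 7 was called by the main edgeR test, where 4.32% of all genes were called and 1.02% were called higher. An unadjusted p under 0.05 was reached by 4 of 7 and by 5083 of all 31495 tested genes (edgeR). SF3B6 had 93.4, 86.4 and 99.3 CPM in DMSO and 106.5, 125.4 and 128.4 CPM in PB. Every PB library was above all DMSO libraries, and the log2 fold change was 0.37 ± 0.12 (95% interval 0.12 to 0.62, edgeR, adjusted p = 0.0922). SF3B1 had 483.1, 435.6 and 359.9 CPM in DMSO and 578.4, 554.2 and 463.4 CPM in PB. It was higher with PB in all 3 lines although the groups overlapped, since line 3 was low under both treatments (0.32 ± 0.12, edgeR, adjusted p = 0.13).

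The block and DESeq2 each called 2 of 7 subunits in SUGP1 E554K, both times SF3B1 and SF3B6. With the block the adjusted p was 0.02 for SF3B1 and 0.0287 for SF3B6, and with DESeq2 it was 0.0352 and 0.0329. The fit with the block called 3.13% of all genes higher and DESeq2 3.42%. SF3B1 alone was called without the third lines of both SUGP1 genotypes (2.63% of all genes higher) and without PB library 3 of SUGP1 E554K (0.634%). SF3B4 went from 162.7 ± 8.31 to 196.3 ± 4.24 CPM (0.27 ± 0.13, edgeR, adjusted p = 0.277) and PHF5A from 59.1 ± 2.03 to 71.3 ± 4.46 CPM (0.27 ± 0.13, edgeR, adjusted p = 0.281). In all, 5 of 7 subunits (SF3B2, SF3B4, SF3B5, SF3B6 and PHF5A) were higher in PB with no overlap, where 7.54% of all genes were. SF3B3 was the exception, at 425.6 ± 67.7 CPM in DMSO and 392.8 ± 33.5 CPM in PB (-0.12 ± 0.12, edgeR, adjusted p = 0.706). Its estimate was -0.01 without DMSO library 1, -0.04 without PB library 3, -0.19 without PB library 1 and -0.23 without DMSO library 3. That of SF3B1 was 0.21 without DMSO library 3. Processed pseudogenes took 1.19 to 2.04% of counts in DMSO and 1.94 to 2.00% in PB, and mitochondrial genes 10.6 to 15.02% and 10.1 to 17.9%, and their part in the result was not tested.

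In SUGP1 G603N the median was 0.11, and none of 7 passed (edgeR, smallest adjusted p = 0.367, 0 by DESeq2). Of all genes 4.08% were called. At an unadjusted p under 0.05 there were 0 of 7 subunits and 5139 of all 31495 tested genes (edgeR). SF3B5 had 86.5, 81.7 and 67.8 CPM in DMSO and 92.4, 89.3 and 102.2 CPM in PB. It was the 1 subunit of 7 that was higher with no overlap, against 5.8% of all genes. SF3B3 was again the only subunit with a negative estimate (-0.03 ± 0.12). That estimate turned positive without DMSO library 1 (0.11), PB library 1 (0.03) or PB library 2 (0.05). Without DMSO library 3 it was -0.15, and SF3B3 was then not the only negative subunit. These values lean on library 3 of SUGP1 G603N under DMSO, which had 368.1 CPM of SF3B1 against 512.3 and 466.5 CPM in libraries 1 and 2, and 119.9 CPM of SF3B4 against 173.8 and 176.0. That library held 2.13% of counts in processed pseudogenes against 1.11 and 1.23%, and the part of this in the result was not tested. Without it, the log2 fold change with PB went from 0.14 to 0.01 for SF3B1 and from 0.14 to -0.02 for SF3B4, and SF3B5 stayed positive at 0.17. Against control in DMSO, the 7 estimates of SUGP1 G603N ran from -0.05 to 0.10 with it and from 0.05 to 0.20 without it, and none was called in either fit (edgeR).

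The 2 genotypes with an edit in SF3b itself had few changes with PB in any gene. In PHF5A 2xTL the 7 log2 fold changes ran from -0.10 to 0.09 with a median of -0.00 (0 of 7 called by edgeR and 0 by DESeq2, 0 at an unadjusted p under 0.05, 0.00318% of all genes called). Their 95% intervals together spanned -0.35 to 0.38, and that of SF3B1 was -0.25 to 0.23. SF3B1 had 462.2, 496.0 and 485.1 CPM in DMSO and 470.6, 495.3 and 465.2 CPM in PB, with full overlap of the groups. PHF5A, the edited gene, had 56.8, 59.5 and 55.0 CPM in DMSO and 58.2, 56.0 and 57.0 CPM in PB.

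In SF3B1 T1080I all 7 estimates were positive, from 0.08 to 0.22 with a median of 0.15, and none passed (0 of 7 by edgeR and 0 by DESeq2, 0 at an unadjusted p under 0.05, adjusted p = 1 for all, 0.00318% of all genes called). SF3B1, the edited gene, had 481.3, 469.1 and 511.2 CPM in DMSO and 489.2, 566.9 and 525.9 CPM in PB. SF3B3 was the only subunit with no overlap, with 437.7, 427.6 and 418.0 CPM in DMSO and 475.7, 514.8 and 468.7 CPM in PB. That is 1 of 7, against 3.26% of all genes. PB library 2 was the highest of its group for 6 of 7 subunits and PB library 1 the lowest for 6 of 7.

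**Figure D3:**
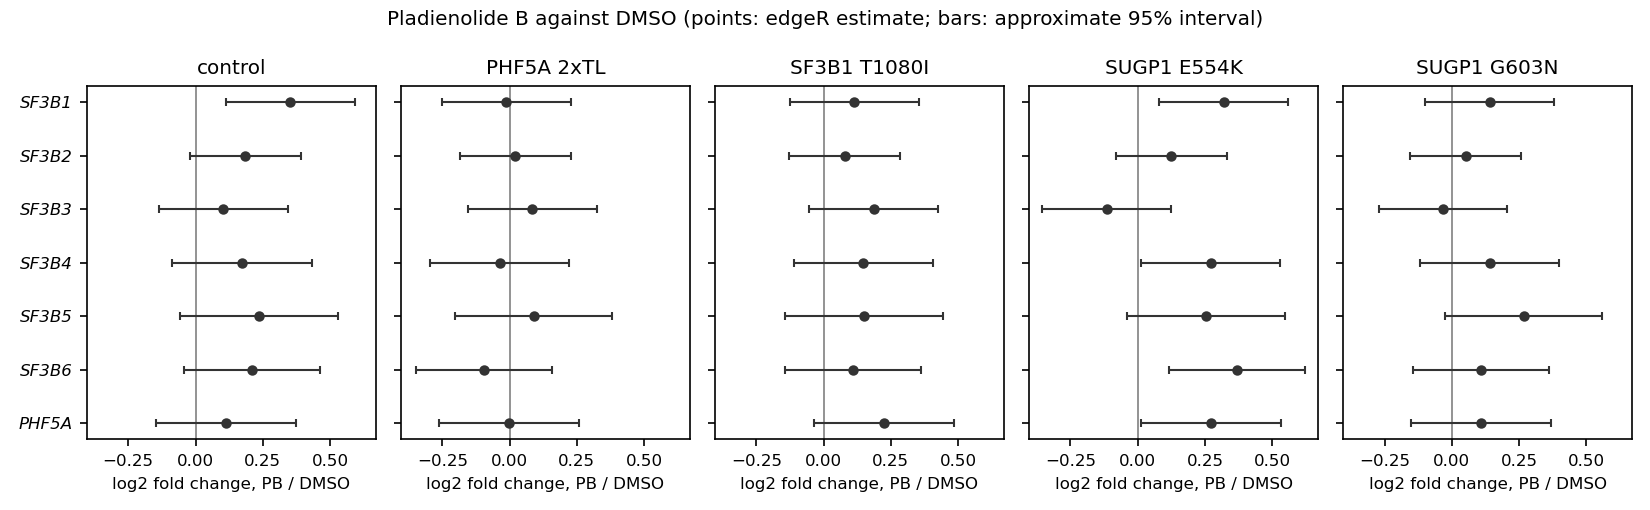
Log2 fold change of each SF3b subunit with PB against DMSO (horizontal axis), one panel per genotype, as the edgeR estimate with its approximate 95% interval. The estimate for SF3B1 is 0.35 in control and 0.32 in SUGP1 E554K, and in PHF5A 2xTL all 7 lie between -0.10 and 0.09.

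Whether a mutant responded to PB unlike control was tested as a difference of differences, all 4 against the same libraries of 1 control line. None of the 7 subunits passed in any of the 4 (edgeR and DESeq2, 0 of 7 each), where 0.26% of all genes passed for PHF5A 2xTL, 0.286% for SF3B1 T1080I, 0% for SUGP1 E554K and 0% for SUGP1 G603N. For PHF5A 2xTL all 7 differences were negative. The one farthest from 0 was SF3B1 at -0.36 ± 0.17 (95% interval -0.70 to -0.03, edgeR, adjusted p = 0.718). With the numbered line as a block it was -0.36 ± 0.13 (edgeR, adjusted p = 0.231). SF3B1 was the 1 subunit at an unadjusted p under 0.05 in these 4 comparisons (edgeR). For PHF5A 2xTL, 1956 of all 31495 tested genes were at such a p. For SF3B1 T1080I the differences ran from -0.24 to 0.11, for SUGP1 E554K from -0.22 to 0.16 and for SUGP1 G603N from -0.21 to 0.03. Without library 3 of SUGP1 G603N under DMSO, all 7 differences of that genotype were negative, from -0.34 to -0.04, and again none passed (edgeR).

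Without the drug, the mutants were compared with control in DMSO, again with shared control libraries. Control was 1 line, so in every comparison with control a trait of that line cannot be told apart from genotype. None of the 7 subunits passed in any of the 4 comparisons (edgeR and DESeq2, 0 of 7 each), and few genes of any kind did, 0.00953% for PHF5A 2xTL, 0% for SF3B1 T1080I, 0% for SUGP1 E554K and 0.00635% for SUGP1 G603N. The edited subunits, PHF5A and SF3B1, did not pass in their own mutants (edgeR, adjusted p = 1). SUGP1, which is edited but is not a subunit, was called in SUGP1 G603N, as given with the U2 list below. PHF5A in PHF5A 2xTL had 57.1 ± 2.27 CPM against 54.1 ± 8.06 in control (0.08 ± 0.13, 95% interval -0.18 to 0.34), and SF3B1 in SF3B1 T1080I had 487.2 ± 21.7 against 430.9 ± 18.9 CPM (0.18 ± 0.12, -0.06 to 0.42). These edits need not alter the level of a transcript, so this does not check the labels. In PHF5A 2xTL, SF3B1, SF3B3, SF3B4 and SF3B6 were higher than control with no overlap, 4 of 7 against 6.37% of all genes, with estimates of 0.10 to 0.20. In SF3B1 T1080I only SF3B1 was (1 of 7, against 6.87%).

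Between SF3B1 T1080I and control in DMSO, 1139 of all 31495 tested genes were at an unadjusted p under 0.05 (edgeR). SF3B5 in SF3B1 T1080I was the only subunit at such a p in DMSO. It had 56.8, 60.2 and 77.4 CPM there against 70.7, 70.6 and 102.4 CPM in control, and the groups overlapped (-0.33 ± 0.14, 95% interval -0.62 to -0.03, edgeR, adjusted p = 1). Without control library 3 the estimate was -0.12 and without library 3 of the mutant -0.47. The 16 protein-coding genes of 4 CPM or more that start within 5 Mb of SF3B5 had a median change from control of 0.11 to 0.14 in the 3 lines, opposite in sign to SF3B5. The same median around PHF5A reached 0.28 in 1 line of PHF5A 2xTL, with 96 genes. Around SF3B1 in the SF3B1 T1080I lines it was 0.08 to 0.15, with 34 genes, the same sign as the SF3B1 estimate. Around SF3B5 it ran from -0.284 to 0.216 in the SUGP1 E554K lines and from -0.225 to 0.251 in those of SUGP1 G603N. The part of neighbouring genes in these results was not tested.

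The ratio of 2 subunits in the same library does not depend on how the libraries are scaled. Among the 21 pairs of subunits, SF3B1 and SF3B3 were picked after their values were seen, so the ratio is given without a test. Both encode large scaffold proteins that lie against each other in the complex. In control the log2 ratio of SF3B3 to SF3B1 was -0.06 ± 0.02 in DMSO (SD, n = 3, range -0.08 to -0.04) and -0.30 ± 0.05 in PB (range -0.36 to -0.26). In SUGP1 E554K it was -0.00 ± 0.02 in DMSO (range -0.03 to 0.01) and -0.43 ± 0.07 in PB (range -0.51 to -0.36). The ranges of these 2 genotypes did not overlap between treatments. In SUGP1 G603N it went from -0.09 ± 0.07 to -0.26 ± 0.11, and the ranges overlapped, since the highest PB line (-0.16) lay above the lowest DMSO line (-0.17).

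In the lines with an edited SF3b subunit the mean ratio was not lower with PB. In PHF5A 2xTL the ratio went the other way, from -0.10 ± 0.03 to -0.00 ± 0.02, with no overlap (ranges -0.12 to -0.07 and -0.02 to 0.02). In SF3B1 T1080I it was -0.19 ± 0.09 in DMSO and -0.12 ± 0.07 in PB, with overlap. Of the 21 pairs, the ranges of PB and DMSO did not overlap for 1 in control (SF3B1 and SF3B3), 3 in PHF5A 2xTL, 1 in SF3B1 T1080I, 4 in SUGP1 E554K and 2 in SUGP1 G603N. Of all pairs among the subunits and the other protein-coding genes of 4 CPM or more, 40.3% did not overlap in control, 5.04% in PHF5A 2xTL, 5.84% in SF3B1 T1080I, 26.7% in SUGP1 E554K and 21.2% in SUGP1 G603N. The 1 of 21 in control was below that share, and over all 5 genotypes 11 of 105 pairs of subunits (10.5%) did not overlap. The largest shift in control was that of SF3B1 and SF3B3, at 0.25 on the log2 scale. In SUGP1 E554K SF3B3 and SF3B6 moved farthest apart, by 0.47, and in SUGP1 G603N SF3B3 and SF3B5, by 0.29.

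**Figure D4:**
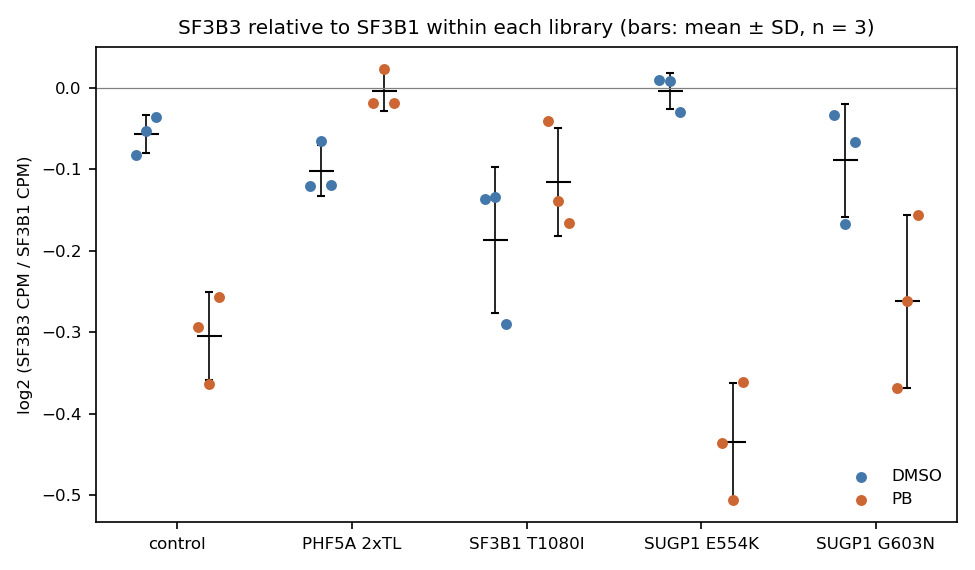
Log2 ratio of SF3B3 to SF3B1 CPM within each library (vertical axis) by genotype, DMSO in blue and PB in orange, with bars for the mean ± SD of 3 libraries. The PB libraries of control (-0.36 to -0.26) and SUGP1 E554K (-0.51 to -0.36) lie below their DMSO libraries, and those of PHF5A 2xTL (-0.02 to 0.02) lie above.

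The sign of the change was also read by pairs of libraries. In control the 3 pairs are cultures of 1 line, and in each mutant they are 3 clones. Over the 15 pairs of same-numbered PB and DMSO libraries, SF3B5 was higher with PB in 14, SF3B1, SF3B2 and PHF5A in 12 each, and SF3B3, SF3B4 and SF3B6 in 11 each. SF3B3 was higher in 6 of 6 pairs of the PHF5A and SF3B1 mutants and in 5 of 9 pairs of control and the SUGP1 mutants. SF3B4 and SF3B6 showed the opposite split, with 3 of 6 and 8 of 9. These are counts of signs without a share over all genes, and the splits were not tested. They include line 3 of SUGP1 G603N, whose DMSO library was the lowest of its group for all 7 subunits. There every subunit was higher with PB, by 0.23 (SF3B2) to 0.66 (SF3B4) on the log2 scale.

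Across the 30 libraries the subunits did not rise and fall as 1 unit. Between pairs of subunits, Pearson's r of log2 CPM ran from -0.23 (SF3B3 and SF3B6) to 0.737 (SF3B6 and PHF5A). Among pairs in contact in the complex, it was 0.723 for SF3B2 and SF3B4 and 0.575 for SF3B1 and SF3B3. For SF3B1 it was 0.265 with PHF5A and 0.312 with SF3B5, and SF3B3 and SF3B5 had -0.116. Libraries share treatment, genotype and scaling, so these are descriptions. Among 10598 other protein-coding genes averaging 4 CPM or more, those most like SF3B1 were RBM26 (r = 0.931) and MRPL35 (0.914). For SF3B2 they were RNPS1 (0.883) and KMT5A (0.778), for SF3B3 SUPT16H (0.866) and NAA35 (0.844), and for SF3B4 RSL1D1 (0.88) and ARPC3 (0.867). For SF3B5 they were CCDC86 (0.881) and NDUFB10 (0.872), for SF3B6 HMGB1 (0.921) and MORF4L2 (0.902), and for PHF5A the ribosomal protein genes RPL11 (0.879) and RPLP2 (0.874).

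The proteins around SF3b gave a reference for the sizes above. Of 19 genes of the U2 snRNP and its partners, PB lowered 3 and raised 0 in control, SUGP1 E554K and SUGP1 G603N alike, and in both SF3b mutants it changed 0 (edgeR, adjusted p under 0.05). Of all genes, 3.31, 3.3 and 2.99% were called lower in those first 3 genotypes. DESeq2 called the same 3 there and, in SUGP1 E554K, also SNRPB2 as higher. In those 2 mutants DESeq2 also called 0. The genes of the list at an unadjusted p under 0.05 numbered 0 for PHF5A 2xTL and 1, SF1, for SF3B1 T1080I. Of all 31495 tested genes, 407 and 278 were at such a p (edgeR). The 3 lowered genes were the same in each, DDX42, U2SURP and SF1. DDX42, an RNA helicase that binds SF3B1, fell from 240.1 ± 23.9 to 139.9 ± 5.20 CPM in control (-0.78 ± 0.11, edgeR, adjusted p = 3.2e-05). Its fold changes were -0.78 (SUGP1 E554K) and -0.66 (SUGP1 G603N) on the log2 scale, and both passed. In PHF5A 2xTL it was 280.4 ± 16.5 CPM in DMSO and 262.5 ± 8.05 in PB, and in SF3B1 T1080I 267.1 ± 21.2 and 259.6 ± 35.4. The difference in response from control passed for both (0.68, edgeR, adjusted p = 0.0396 and 0.74, edgeR, adjusted p = 0.022), and was lost in 13 and 10 of 20 alternative fits. For PHF5A 2xTL it was lost with the size factors of DESeq2, with no low-count filter and without any 1 library of the 4 groups except control DMSO library 1 (adjusted p up to 0.195 over the 20 fits). For SF3B1 T1080I it was lost with no low-count filter and without DMSO library 1 or 3, PB library 2 or 3, control DMSO library 2 or 3 or any control PB library (up to 0.107). U2SURP, a U2-associated SR-related protein, fell by 0.57, 0.61 and 0.70 in control, SUGP1 E554K and SUGP1 G603N, and SF1, the protein that binds the branch point before U2 does, by 0.56, 0.52 and 0.59. In the 2 SUGP1 genotypes, 2 and 3 of these calls were lost when only the groups compared were fitted, and none was lost in control.

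With the replicate block the U2 list had 2 genes higher (DDX46 and U2AF1) and 4 lower (RBM17 in addition) in control, 3 higher and 3 lower in SUGP1 E554K, and 1 higher and 3 lower in SUGP1 G603N. The block called 2.11, 3.13 and 2.29% of all genes higher and 7.24, 8.18 and 6.96% lower in these 3 genotypes. The 3 subunits of SF3a, which bridges SF3b and the U2 RNA, passed in none of the 5 PB comparisons. In control SF3A1 went from 281.0 ± 15.4 to 302.9 ± 10.5 CPM, SF3A2 from 231.2 ± 39.5 to 232.9 ± 8.49 and SF3A3 from 220.7 ± 21.5 to 197.4 ± 5.87. In DMSO, edgeR called 1 gene of the list against the 1 line of control. This was SUGP1 itself in the SUGP1 G603N lines (89.1 ± 5.63 against 47.7 ± 12.5 CPM, edgeR, adjusted p = 0.0058), a call lost in 3 of 14 alternative fits. These were the fit of the groups compared alone (adjusted p = 0.844) and those without control DMSO library 1 or 2. DESeq2 called it too, and 1 more gene of the list, DDX46, as higher in SF3B1 T1080I (338.9 ± 17.03 against 228.5 ± 7.11 CPM), where it called 0.175% of all genes higher and edgeR gave adjusted p = 0.194. Of the 7 proteins particular to the U11/U12 particle, which also holds SF3b, 0 passed in any of the 13 comparisons (edgeR, 91 tests). Of these tests 1 reached an unadjusted p under 0.05 (SNRNP48 in SF3B1 T1080I in DMSO, which DESeq2 called), and the block called 1 (ZCRB1 with PB in SUGP1 E554K). The median log2 fold change of these 7 with PB in control was 0.15, beside 0.18 for the SF3b subunits. For the U2 list it was 0.06.

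Copies of a gene elsewhere in the genome can share its reads. The 5 processed copies of PHF5A summed to at most 1.53 CPM, or 2.72% of PHF5A, and the 1 copy of SF3B4 to at most 0.785% of SF3B4. SF3B1, SF3B2 and SF3B3 overlap short or antisense genes, none with more than 15 counts in any library.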

How the data were processed

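RNA of 30 cultures was poly(A)-selected and sequenced in paired ends, per the labels' protocols. The submitters' processing notes name the build hg38 and the tools UMI-tools, STAR and SAMtools 1.10. Not given in the sources used here are the counting program, its annotation and whether it used strand. Reads of a gene and an overlapping antisense gene therefore cannot be told apart.

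The authors deposited estimated counts per gene, not normalized, of which 65.5% of values above 0 are not whole, and a length per gene. Of 61487 identifiers, 61369 were matched to a table of names and 58312 to GENCODE release 29. Counts were rounded (ties up), filtered by group to 31495 genes and scaled by TMM. All 30 libraries entered a single quasi-likelihood fit by group (edgeR 4.0.16, R 4.3.3). The 13 contrasts, 91 tests of subunits, had their p-values adjusted across every tested gene (Benjamini-Hochberg). Standard errors and 95% intervals are approximate. Alternatives were the size factors of DESeq2, DESeq2 1.42.0, no low-count filter, only the groups compared, a replicate block and library size without mitochondrial genes. Others were leaving out each library and other gene lengths. Chosen after seeing the data were rounding ties to even and leaving out the third SUGP1 lines. The replicate block was the numbered line within a genotype for comparisons with PB. For mutants against control in DMSO it was the number alone.

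The 7 subunits, the lists and the tests were chosen with earlier results of these data known. Named beside the subunits are the list genes that were called or belong to SF3a, and for each subunit the 2 most alike genes by Pearson's r of log2 CPM (prior count 2). Per the labels, a number within a mutant stands for 1 monoclonal line. In control, deviations from the group mean correlated by 0.212 to 0.436 between same-numbered libraries over 11999 genes, so numbers pair PB with DMSO. The main fit does not use this pairing, and the replicate block does. Since all 30 libraries share the main fit, its p-values for control rest on spread pooled over the 10 groups, including that between mutant clones. For PB in control, only the fit of the groups compared alone measures the spread between replicates of 1 line, which may be technical. The edited stretch of PHF5A is not reported here.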

Additional observations from a re-analysis of the deposited data

How the results depend on the processing

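No subunit was called in any of the 13 contrasts, and with PB in control and in SUGP1 E554K that count of 0 was not stable. In control it was 1, always SF3B1, with the size factors of DESeq2 (edgeR, adjusted p = 0.0497), with DESeq2 (0.0201) and with only the groups compared (0.023). It was also 1 with the numbered line as a block (0.013), with library size without mitochondrial genes (0.0314) and with ties rounded to even (0.0416). Without the third lines of both SUGP1 genotypes it was 1 as well (0.00777). It was 0 without the low-count filter and without any 1 library. In SUGP1 E554K the count was 2 with DESeq2 and with the block, and 1 without the third lines. It ranged from 0 to 1 when 1 library was left out, the 1 being SF3B1 without PB library 3 (adjusted p = 0.0371). The block changed no other call of a subunit. Of 714 leave-one-out tests of a subunit, 1 changed a call. The cause of these differences was not tested. With 3 libraries a group, the 95% intervals of PB changes reached 0.21 (SF3B2) to 0.29 (SF3B5) log2 units to each side. Estimates beyond these, such as 0.35 for SF3B1 in control and 0.37 for SF3B6 in SUGP1 E554K, also missed the adjusted threshold, so changes of that size can go uncalled.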
